A study of Mus musculus with 15 samples.

Results

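The 8 genes described here belong to the angiotensin, endothelin and mineralocorticoid systems, which were followed in cultured mouse podocytes with and without mechanical stretch. They were taken by symbol, after Ensembl gene identifiers had been matched to symbols, from a deposited table of 55416 genes. Angiotensinogen (Agt) is the precursor of the angiotensin peptides, angiotensin-converting enzyme (Ace) makes angiotensin II, and Agtr1a encodes the main receptor for that peptide. Endothelin 1 (Edn1) is a constrictor peptide, Ece1 encodes the enzyme that releases it from its precursor, and Ednra and Ednrb encode its receptors. Nr3c2 encodes the mineralocorticoid receptor, a nuclear receptor for aldosterone. The cells were SVI podocytes, a conditionally immortalised mouse line that was differentiated and grown on flexible silicone membranes. RNA was sequenced from 15 samples: 6 low-stretch and 3 unstretched samples in experiment 1, and 3 high-stretch and 3 unstretched samples in experiment 2. Membranes were deflected by 5 to 6 mm in the low-stretch samples and by 7 to 8 mm in the high-stretch samples, per their labels. Low and high stretch came from different experiments, so amplitude and experiment cannot be told apart. All samples come from 1 cell line, without the other cells of the glomerulus. Nothing in the labels states that replicates were separate cultures, so the p-values measure the spread between these samples.

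In the kidney, renin cuts angiotensinogen to angiotensin I, which Ace converts to angiotensin II. Aminopeptidases and neprilysin then trim or degrade these peptides. Angiotensin II and endothelin 1 act through receptors coupled to Gq proteins, phospholipase C and calcium release, and drugs against angiotensin, endothelin and mineralocorticoid receptors are used in glomerular disease. Aldosterone and glucocorticoids both bind the mineralocorticoid receptor, and Hsd11b2 inactivates glucocorticoids in cells where it is present.

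Library totals ran from 172.2 to 396.7 M counts (M, megacounts), so 3 counts corresponded to between 0.00682 and 0.0222 CPM (counts per M counts of the library, after TMM scaling of library sizes). Among defining podocyte markers, Synpo (group means 319 to 662 CPM) and Podxl (122 to 185 CPM) were abundant, Wt1 lay between 0.545 and 5.05 CPM, and Nphs1 between 0.292 and 0.683 CPM. In experiment 2 the unstretched replicate 3 stood apart from its group on the first principal component (32.5 against 121 and 163), so high-stretch results of the members and of named pathway genes are also given without it.

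The promoter windows of Agt and Edn1 are shown because these 2 members passed the test in both experiments. Each window is the 250 bases before the gene's start in RefSeq on GRCm38.p6, read 5′ to 3′ on the gene's strand, with motif matches in capitals. The submitters' processing notes name the build mm39 for the deposited files, and positions on that build were not used here.
Agt, chr8:124569707-124569956, minus strand: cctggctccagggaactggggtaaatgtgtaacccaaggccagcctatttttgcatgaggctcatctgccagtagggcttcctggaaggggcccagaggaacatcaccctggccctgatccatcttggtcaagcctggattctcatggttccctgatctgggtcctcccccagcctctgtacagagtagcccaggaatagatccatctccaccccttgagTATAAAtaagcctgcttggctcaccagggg
Edn1, chr13:42301226-42301475, plus strand: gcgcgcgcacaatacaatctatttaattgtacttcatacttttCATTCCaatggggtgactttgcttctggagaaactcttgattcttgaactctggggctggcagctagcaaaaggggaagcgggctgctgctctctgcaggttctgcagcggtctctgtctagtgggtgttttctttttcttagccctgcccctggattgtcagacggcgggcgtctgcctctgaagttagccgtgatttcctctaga
Motifs were searched on both strands, and their frequency is given over 32817 RefSeq windows of this length. The Agt window held the TATA box letters, TATAAA, from position -30 to -25 before the start, a motif held by 12.4% of all windows. The capitals in the Edn1 window, from position -207 to -202, are the reverse complement of a motif bound by TEAD factors, searched as GGAATG and held by 12.6% of all windows. Neither window held the AP-1 motif, which was searched with the letters TGANTCA and was found in 6.75% of windows. A GATA factor motif was searched as AGATAA, was present in 9.99% of all windows, and was in neither of these. The core of the hypoxia response element, searched as ACGTG, was in 16.6% of windows and was likewise in neither. Outside the window shown, past the Edn1 start, GATA letters (TTATCT) were found from position 9 to 14. Letters of the hypoxia core (CACGT) were found there from position 22 to 26. The matches did not overlap each other, and they describe letters in a sequence, not sites shown to be bound.

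Agt, Edn1, Ece1 and Nr3c2 were expressed, with a mean of at least 1 CPM in at least 1 group. Agtr1a, Ace, Ednra and Ednrb were at trace level, below 0.1 CPM in every group. The precursor and ligand were thus measured in cells whose libraries held almost no RNA for the receptors. Agtr1a had 6 counts in all 15 libraries together and 0 in 10 of them. Ednra had 14 counts, with at most 4 in a library, and Ednrb had 5 counts, with at most 1. Ace had 41 counts, with between 0 and 8 in a library. Its highest group mean was 0.0344 ± 0.0218 CPM (SD, n = 3), reached without stretch in experiment 2, against 0.00505 ± 0.00161 CPM (SD, n = 3) without stretch in experiment 1. That difference, on 17 against 5 counts, passed in a fit without the filter (edgeR adjusted p = 0.0235) and in DESeq2 (0.0272). A count of 0 allows a level of up to 3 counts, which is 0.0222 CPM in the shallowest library. The 4 trace genes did not pass the filter on low counts in any comparison, so no fold change is given for them.

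**Figure D1:**
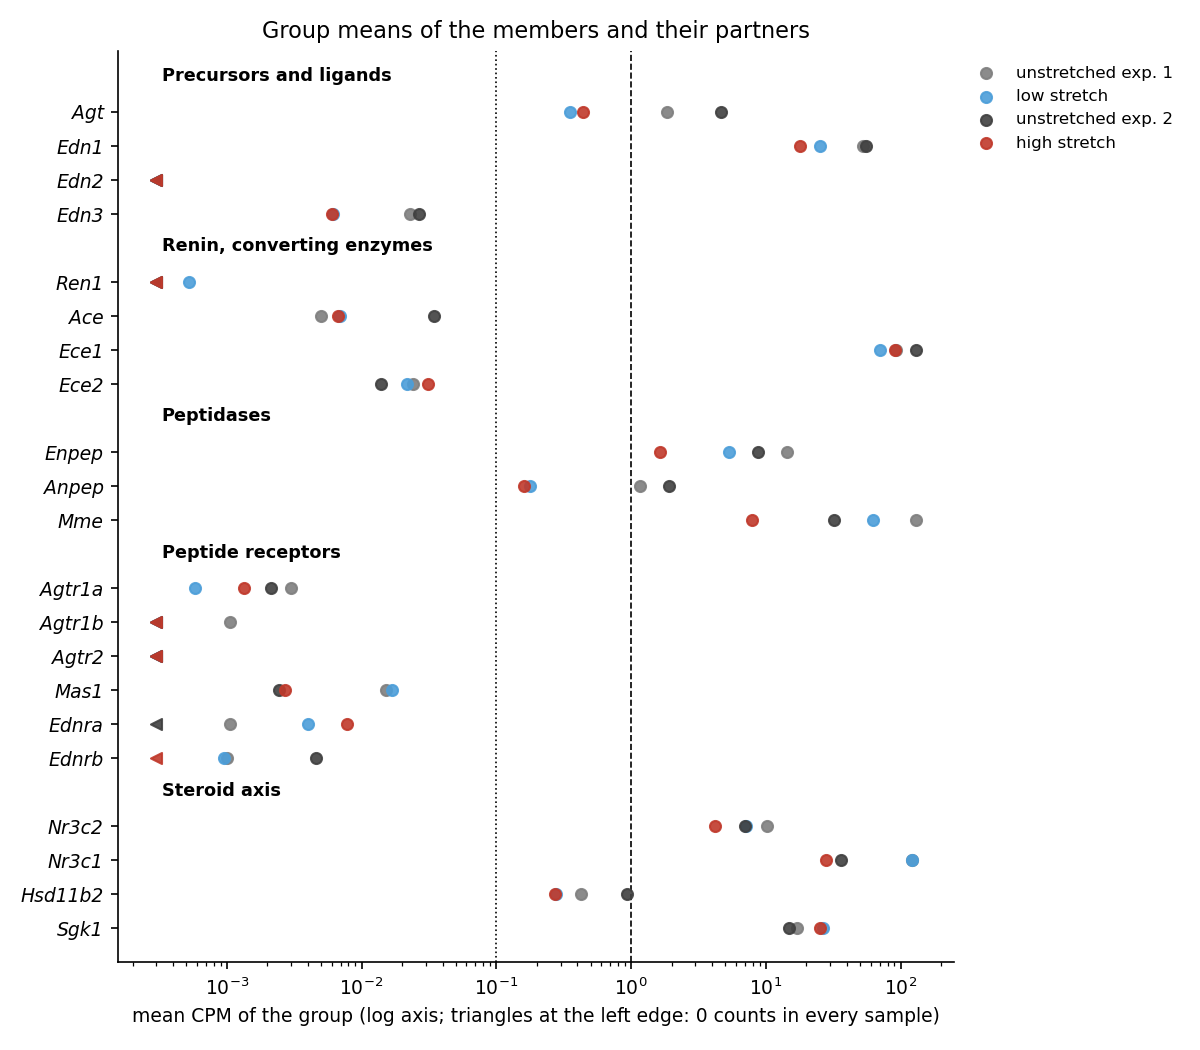
Mean CPM of each group (colours) on a log axis for the 8 members and their named partners, ordered by role. The dashed line marks 1 CPM and the dotted line 0.1 CPM. Triangles at the left edge mark groups with 0 counts in every sample, where symbols can hide each other. Agt, Edn1, Ece1 and Nr3c2 lie to the right of the dashed line in at least 1 group, and all 6 peptide receptors lie to the left of the dotted line.

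The partner genes of both systems were taken as lists by function. Among 19 further genes of angiotensin processing and reception, 11 were expressed and 8 were at trace level. Renin itself (Ren1) had 1 count in all 15 libraries, Agtr1b had 1, and Agtr2, which encodes the other class of angiotensin II receptor, had 0. Mas1, which encodes a receptor for angiotensin 1-7, had 56 counts, with 20 of them in 1 low-stretch library. Of 6 further endothelin genes none was expressed, with 1 at low level and 5 at trace level. Edn2 had 0 counts, Edn3 had 53, and Ece2 had 93. Downstream genes were present, since 18 of 27 signalling genes were expressed, among them Gnaq and Gna11 for the coupled G proteins. The calcium channel gene Trpc6, which has been linked to angiotensin signalling in podocytes, was at trace level, with group means of at most 0.00795 CPM.

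On a scale per length (TPM, which divides by transcript length and then by the library total), Ece1 had the highest level of the 4 expressed members in every group and Edn1 the second highest. In the unstretched samples of experiment 1 the gene-level TPM was 127 ± 13.9 for Ece1, 51.4 ± 11.0 for Edn1, 3.95 ± 0.908 for Nr3c2 and 2.01 ± 0.635 for Agt (SD, n = 3). The unstretched samples of experiment 2 had 135 ± 28.3 TPM for Ece1, 38.7 ± 23.0 for Edn1, 3.42 ± 0.573 for Agt and 2.13 ± 1.33 for Nr3c2 (SD, n = 3). The order of Agt and Nr3c2 therefore differed between the experiments, and their ranges in experiment 2 overlapped. In the stretched groups Agt had the lowest level of the 4 genes, at 0.339 ± 0.115 TPM under low stretch (SD, n = 6) and 0.274 ± 0.136 TPM under high stretch (SD, n = 3).

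Low stretch was compared with unstretched cells of experiment 1 to ask which genes respond to the smaller deflection. Agt, Edn1 and Nr3c2 fell, and Ece1 did not pass the test, so 3 of the 4 tested members were called lower. Among all 21672 genes tested, 3.6% were called lower, and 5.45% were called in either direction (edgeR's quasi-likelihood test, Benjamini-Hochberg adjusted p under 0.05). The median log2 fold change of the 4 tested members was -0.79, against 0.01 over all genes tested. The groups did not overlap for Agt, Edn1 and Nr3c2, with every low-stretch sample below every unstretched one, as was the case for 7.47% of all genes tested. In bulk RNA, fewer cells of a kind and less RNA per cell cannot be told apart.

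Agt, the angiotensin precursor, fell the most of the members. The unstretched replicates 1 to 3 had 2.12, 1.19 and 2.20 CPM, and the 6 low-stretch samples ranged from 0.169 to 0.529 CPM with a median of 0.329. Even the highest low-stretch sample was well under the lowest unstretched one. The log2 fold change was -2.39 (SE 0.30), a 5.23-fold lower level, with an edgeR adjusted p of 0.00391. Leaving out each of the 9 samples in turn kept the call in all 9 fits, with log2 fold changes from -2.61 to -2.24.

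Edn1, the endothelin ligand, was lower by 2.08-fold. Unstretched replicates had 54.4, 40.4 and 62.9 CPM, and low-stretch samples ranged from 18.0 to 37.2 CPM with a median of 21.1. The low-stretch samples fell into a lower set of replicates 1 to 4 (18.0 to 22.4 CPM) and a higher pair, replicates 5 and 6 (37.2 and 36.4 CPM), which came close to the lowest unstretched sample. Its log2 fold change was -1.06 (SE 0.25, edgeR adjusted p = 0.0372). This call was lost without unstretched replicate 1 or 3 (adjusted p = 0.12 and 0.183) and without low-stretch replicate 1, 2, 3 or 4 (adjusted p from 0.0643 to 0.0769), while the log2 fold change stayed between -1.20 and -0.92. A predicted antisense gene within Edn1, Gm47118, held at most 0.745% of the Edn1 count in any library, and the strand setting of the counting is not given in the sources used here.

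Nr3c2, the mineralocorticoid receptor, was lower by 1.43-fold. The unstretched samples had 8.57, 9.32 and 12.4 CPM, and the low-stretch samples ranged from 6.02 to 7.99 CPM with a median of 7.28. The gap between the groups was narrow, from 7.99 to 8.57 CPM. Nr3c2 had a log2 fold change of -0.51 (SE 0.13, edgeR adjusted p = 0.0473). The call sat at the threshold: it was lost with RLE size factors (adjusted p = 0.0503), without the filter (0.0561), in a fit of all 15 samples (0.15) and without any 1 sample (0.0622 to 0.265) except low-stretch replicate 5 (0.0407).

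Ece1, the endothelin-converting enzyme, did not pass. Unstretched replicates had 96.9, 77.4 and 101 CPM, and low-stretch samples ranged from 56.6 to 86.5 CPM with a median of 67.0. The groups overlapped, since low-stretch replicates 5 and 6 (85.6 and 86.5 CPM) lay above unstretched replicate 2. Its log2 fold change was -0.39 (SE 0.15, edgeR adjusted p = 0.141).

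**Figure D2:**
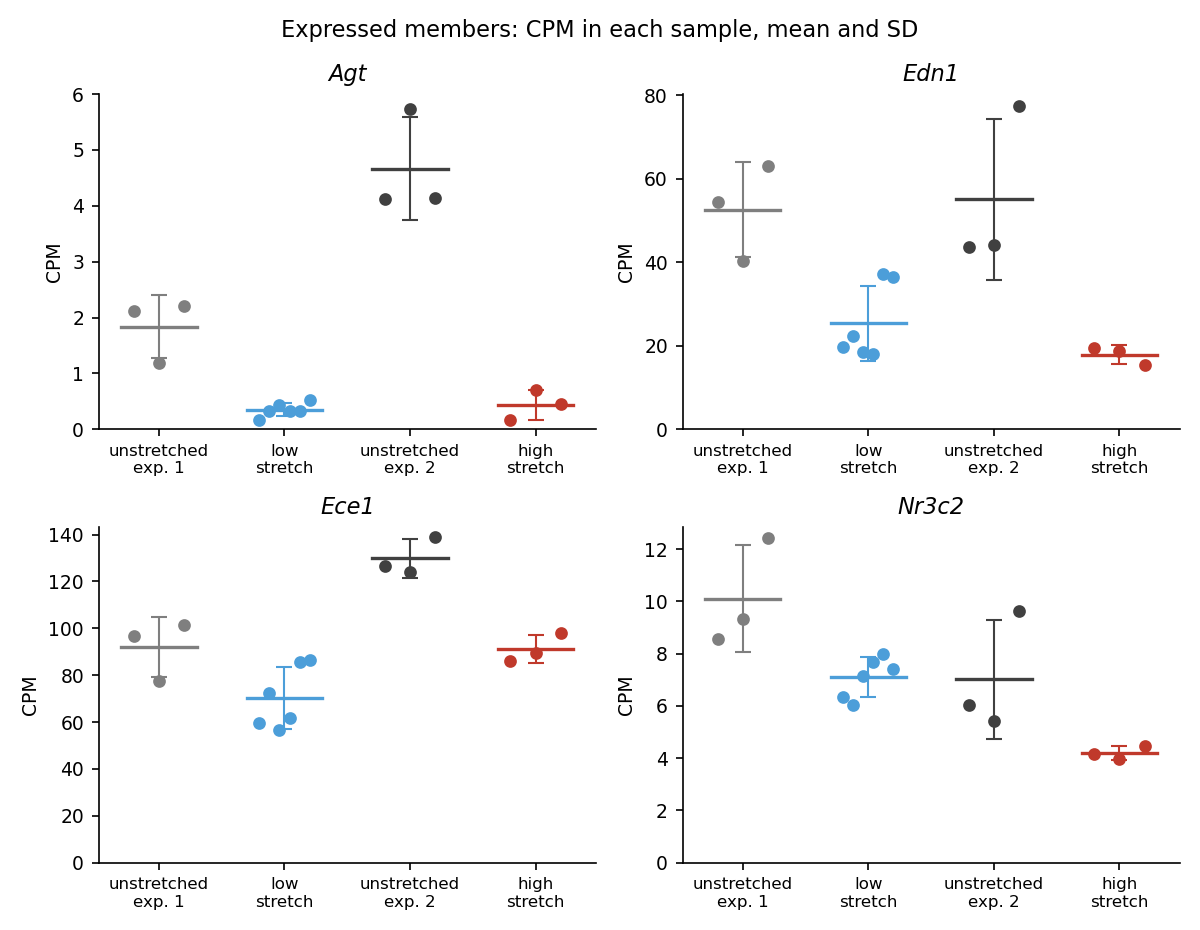
CPM of the 4 expressed members in each sample (points), with the group mean (horizontal line) and SD (bars), on linear axes that start at 0. Each stretched group has a lower mean than the unstretched samples of its own experiment, with the widest relative gap for Agt (1.84 against 0.351 CPM in experiment 1 and 4.66 against 0.438 CPM in experiment 2).

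The letter and number codes in the sample descriptions fall into runs of consecutive codes, each with 1 unstretched sample; what the codes mark is not given in the sources used here. In experiment 1 the samples of a run deviated from their group means together, with a correlation of 0.328 to 0.57 in all 6 same-run pairs of an unstretched and a stretched sample, against a mean of -0.218 for pairs from different runs. Within the 3 runs of experiment 1, all 4 expressed members were lower in the stretched samples. The log2 ratio of stretched to unstretched CPM in runs 1, 2 and 3 was -3.09, -1.67 and -2.36 for Agt. The corresponding values were -1.37, -1.15 and -0.77 for Edn1, -0.56, -0.39 and -0.24 for Ece1, and -0.47, -0.33 and -0.69 for Nr3c2. With the run as a block in the edgeR fit, all 4 members were called lower, Ece1 with an adjusted p of 0.00287 and Nr3c2 with 0.000799, while 6106 of all genes were called in place of 1181. In that fit the log2 fold change of Ece1 was -0.40, close to its value without the block.

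High stretch was compared with unstretched cells of experiment 2. Agt and Edn1 fell, and Nr3c2 and Ece1 did not pass, so 2 of the 4 tested members were called lower, and 2 of 4 also without unstretched replicate 3. Over 18524 genes tested, 2.16% were called lower and 3.47% in either direction. Without unstretched replicate 3, 796 of 18297 genes were called lower. The median log2 fold change of the 4 members was -1.17, against -0.02 over all genes tested. All 4 members had every high-stretch sample below every unstretched sample, as did 10.7% of all genes tested.

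Agt again had the largest fold of the members. Unstretched replicates had 4.12, 5.73 and 4.14 CPM, and high-stretch replicates had 0.162, 0.695 and 0.456 CPM. The highest stretched sample was several-fold below the lowest unstretched one. The log2 fold change was -3.42 (SE 0.49), a 10.7-fold lower level, with an edgeR adjusted p of 0.0132. Without unstretched replicate 3, which stood apart, it was -3.48 (SE 0.45, adjusted p = 0.00138), and the call was lost only without high-stretch replicate 3 (log2 fold change -3.43, adjusted p = 0.0908).

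Edn1 was lower by 3.05-fold, with a log2 fold change of -1.61 (SE 0.28, edgeR adjusted p = 0.0230). Unstretched replicates had 43.7, 44.2 and 77.3 CPM, and high-stretch replicates had 19.4, 18.8 and 15.4 CPM. The high-stretch samples lay close together, and unstretched replicate 3 was the highest of its group. Without that replicate the log2 fold change was -1.24 (SE 0.19, adjusted p = 0.0034). The call was lost without unstretched replicate 1 (adjusted p = 0.0653) and without high-stretch replicate 1, 2 or 3 (0.0992, 0.0692 and 0.151).

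Nr3c2 had 6.03, 5.41 and 9.61 CPM in the unstretched replicates and 4.17, 3.96 and 4.46 CPM under high stretch. Here too unstretched replicate 3 was the highest sample. The log2 fold change was -0.73 (SE 0.27, edgeR adjusted p = 0.253), and without that replicate it was -0.39 (SE 0.22, adjusted p = 0.308). In a fit of all 15 samples, which share 1 estimate of the spread, it passed with an adjusted p of 0.0427.

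Ece1 had 126, 124 and 139 CPM in the unstretched replicates and 86.2, 89.6 and 97.9 CPM under high stretch. Both groups were tight and did not overlap. The log2 fold change was -0.49 (SE 0.16), and the edgeR adjusted p was 0.166. Without unstretched replicate 3 the log2 fold change was -0.40 (adjusted p = 0.155). Within the runs of experiment 2, which hold 1 sample of each group and are the same split as the replicate number, the log2 ratios were -0.55, -0.47 and -0.51 for Ece1, and -4.67, -3.04 and -3.18 for Agt. The run that holds the unstretched replicate 3 had the lowest ratio for Edn1 (-2.33, against -1.17 and -1.23) and for Nr3c2 (-1.11, against -0.53 and -0.45).

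**Figure D3:**
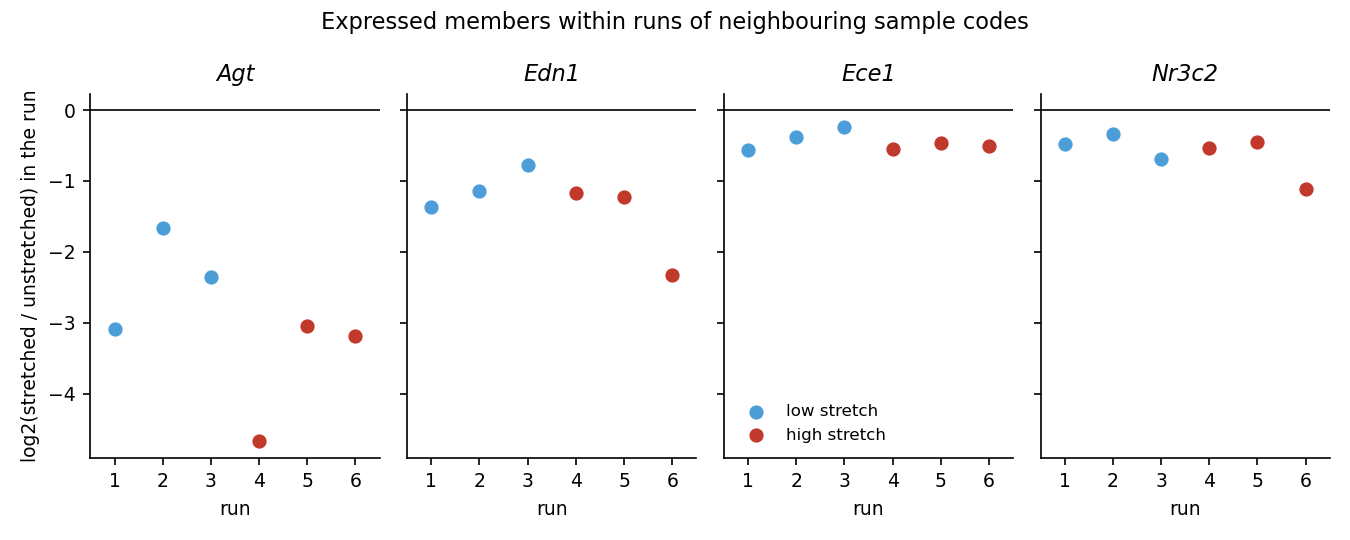
Log2 ratio of stretched to unstretched CPM within each run of consecutive sample codes, for the 4 expressed members. Runs 1 to 3 belong to experiment 1 (1 unstretched and 2 low-stretch samples, whose mean is used) and runs 4 to 6 to experiment 2 (1 of each). All 24 points lie below 0, from -4.67 for Agt in run 4 to -0.24 for Ece1 in run 3.

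Whether the effect of stretch differed between the experiments was tested as a contrast over all 15 samples. None of the 4 members passed, and 0.0% of 22015 genes tested were called (547 genes had an unadjusted p under 0.05; DESeq2 also called 0). The contrast for Agt was -1.05 on the log2 scale (SE 0.57, unadjusted p = 0.0839), and for Edn1 it was -0.57 (SE 0.40, unadjusted p = 0.172). Those for Ece1 and Nr3c2 were -0.12 (SE 0.22) and -0.23 (SE 0.27). The edgeR adjusted p was 1.00 for each, so a larger effect of high than of low stretch on these genes was not shown.

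The unstretched samples of the experiments already differed in some members. Agt was 2.51-fold higher in experiment 2 than in experiment 1 (log2 difference 1.33, SE 0.30, edgeR adjusted p = 0.0066), and Ece1 was 1.40-fold higher (0.48, SE 0.17, adjusted p = 0.0386). On the TPM scale the Ece1 means were closer, at 127 and 135. Such differences were common, since 62.5% of 20707 genes tested were called in this comparison. The Ece1 call was lost without the filter (adjusted p = 0.0653) and without any 1 sample (adjusted p from 0.051 to 0.139) except unstretched replicate 3 of experiment 2 (0.029). Edn1 was at the same level within its error (0.05, SE 0.27, adjusted p = 0.882), and Nr3c2 had a difference of -0.54 (SE 0.27, adjusted p = 0.109). Without unstretched replicate 3 of experiment 2 the Nr3c2 difference was -0.88 and passed (adjusted p = 0.00412).

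Ordered by mean CPM, the groups ran as follows. For Agt the order was unstretched of experiment 2 (4.66 ± 0.925), unstretched of experiment 1 (1.84 ± 0.562), high stretch (0.438 ± 0.267) and low stretch (0.351 ± 0.121). Of these neighbours the stretched groups overlapped and the others did not. For Edn1 the unstretched groups (55.0 ± 19.2 in experiment 2 and 52.6 ± 11.4 in experiment 1) overlapped, as did low stretch (25.4 ± 8.995) and high stretch (17.9 ± 2.19). For Ece1 the unstretched samples of experiment 2 (130 ± 8.19) stood above all others, and the unstretched samples of experiment 1 (91.9 ± 12.9), high stretch (91.2 ± 6.03) and low stretch (70.4 ± 13.2) followed. Each of these last 3 groups overlapped with its neighbour. For Nr3c2 the order was unstretched of experiment 1 (10.1 ± 2.04), low stretch (7.10 ± 0.769), unstretched of experiment 2 (7.02 ± 2.27) and high stretch (4.20 ± 0.251). Low stretch overlapped there with the unstretched samples of experiment 2, and the other neighbours did not overlap. In all of these values the error is the SD, with n = 6 for low stretch and n = 3 for the other groups.

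Among the other genes of angiotensin processing and reception, a few peptidase genes fell and most genes were not called. Of 11 tested genes in that list, 2 were called lower and 0 higher under low stretch, and 3 were called lower and 0 higher under high stretch. The median log2 fold change over the 11 was 0.09 and -0.06, so the list as a whole stayed near the median of all genes (0.01 and -0.02). The called genes were Anpep and Enpep in both comparisons and Mme under high stretch. Anpep (aminopeptidase N) turns angiotensin III into angiotensin IV, Enpep (aminopeptidase A) turns angiotensin II into angiotensin III, and Mme (neprilysin) can release angiotensin 1-7 and degrade endothelin 1. Other peptidases of the list that can cleave angiotensins were not called in either comparison: under low stretch Lnpep had a log2 fold change of -0.14, Prcp 0.10, Prep 0.14, Thop1 0.11 and Nln 0.13 (edgeR adjusted p from 0.512 to 0.752). Of the 6 further endothelin genes, 0 were tested under low stretch. Under high stretch 2 were tested, and both were higher, against the direction of Edn1 and Ece1. Their log2 fold changes were 1.929 and 0.834 (edgeR adjusted p = 0.322 and 0.758), at no more than 0.163 CPM in any library. With the run as a block 1 was called higher, in a fit that called 1546 of 18524 genes. Without unstretched replicate 3, 0 were called.

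Anpep had 1.35, 0.601 and 1.53 CPM in the unstretched replicates of experiment 1 and from 0.0959 to 0.280 CPM, median 0.158, under low stretch. In experiment 2 it had 2.44, 1.76 and 1.48 CPM unstretched and 0.150, 0.149 and 0.181 CPM under high stretch. No stretched sample reached the unstretched range in either experiment. Its log2 fold change was -2.69 (SE 0.36, edgeR adjusted p = 0.00506) for low stretch and -3.53 (SE 0.29, adjusted p = 0.00309) for high stretch, and it kept both calls with each sample left out in turn. Without unstretched replicate 3 of experiment 2 the high-stretch value was -3.65 (adjusted p = 0.000144).

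Enpep had 14.97, 10.1 and 17.6 CPM in unstretched cells of experiment 1 and from 3.44 to 6.97 CPM, median 5.38, under low stretch. In experiment 2 the unstretched replicates had 7.08, 5.71 and 13.4 CPM, and the high-stretch replicates had 1.48, 1.42 and 2.02 CPM. The groups were again separate in both experiments. The log2 fold change was -1.42 (SE 0.21, edgeR adjusted p = 0.00628) and -2.40 (SE 0.37, adjusted p = 0.0161). Under high stretch the call was lost without unstretched replicate 1 or high-stretch replicate 1, 2 or 3 (adjusted p from 0.0543 to 0.0987), and without unstretched replicate 3 it was -1.91 (adjusted p = 0.00141).

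Mme had 109, 109 and 172.3 CPM unstretched and from 33.6 to 96.9 CPM, median 61.8, under low stretch. The groups did not overlap, but the log2 fold change of -1.07 (SE 0.28) had an edgeR adjusted p of 0.0528. It passed in 4 of 6 alternatives, with the run as a block (-1.09, adjusted p = 0.00114), in DESeq2 (0.00676), without the filter (0.0285) and with the replicate number as a block (0.0353), and in 2 of 9 fits with a sample left out. Under high stretch it had 7.45, 6.84 and 9.36 CPM against 25.9, 16.6 and 53.4 CPM, a log2 fold change of -2.01 (SE 0.42, adjusted p = 0.0439). That call was lost without unstretched replicate 1 or high-stretch replicate 1, 2 or 3 (adjusted p from 0.112 to 0.192), and without unstretched replicate 3 the log2 fold change was -1.38 (adjusted p = 0.00752). None of the 3 peptidase effects differed between the experiments by the contrast over all samples (-0.87 for Anpep, -0.998 for Enpep and -0.95 for Mme, each with an edgeR adjusted p of 1.00).

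**Figure D4:**
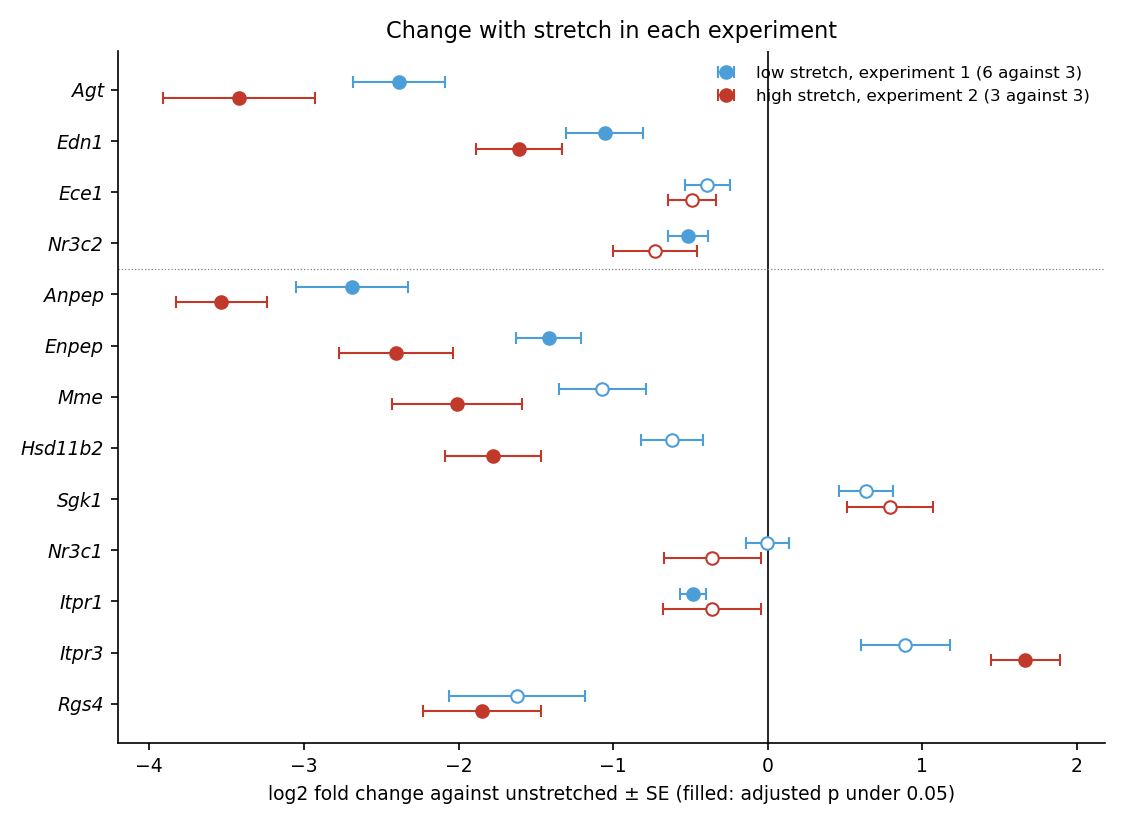
Log2 fold change with its SE for low stretch (blue) and high stretch (red), each against unstretched samples of the same experiment; filled points have an adjusted p under 0.05. The 4 members above the dotted line all lie below 0, and so do the peptidases Anpep, Enpep and Mme, while Itpr3 lies above 0 with 0.89 under low and 1.67 under high stretch.

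In the mineralocorticoid list, 10 of 15 genes were tested under low stretch and 0 were called, and 9 were tested under high stretch with 1 called lower. With the run as a block the calls under low stretch were 1 higher and 3 lower. That fit called 6106 of 21672 genes. Without unstretched replicate 3 the calls under high stretch were 1 higher and 1 lower, where 1421 of 18297 genes were called. The gene called under high stretch with all samples was Hsd11b2. It had 1.06, 0.748 and 0.986 CPM in the unstretched replicates of experiment 2 and 0.206, 0.369 and 0.238 CPM under high stretch, with no overlap. Its log2 fold change was -1.78 (SE 0.31, edgeR adjusted p = 0.0240), and -0.62 (SE 0.20, adjusted p = 0.0965) under low stretch, where it passed with the run as a block (adjusted p = 0.0154) and in DESeq2 (0.0342). The high-stretch call was lost without unstretched replicate 1 (adjusted p = 0.115) or high-stretch replicate 1 or 3 (0.129 and 0.162). Without unstretched replicate 3 the log2 fold change was -1.71 (adjusted p = 0.0112).

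Sgk1, a kinase gene that corticosteroid receptors induce, had values in the other direction that did not pass, although they passed under some alternatives. It had 13.4, 22.3 and 15.2 CPM in the unstretched replicates of experiment 1 and from 22.5 to 30.8 CPM, median 25.8, under low stretch (log2 fold change 0.63, SE 0.17, edgeR adjusted p = 0.0593). This passed in DESeq2 (adjusted p = 0.00889), with the run as a block (0.0149), without the filter (0.0371) and without unstretched replicate 2 (0.90, adjusted p = 0.0185). In experiment 2 it had 10.5, 13.4 and 20.5 CPM unstretched and 28.02, 23.9 and 24.2 CPM under high stretch (0.79, SE 0.28, adjusted p = 0.217). Unstretched replicate 3 was again the highest of its group, and without it the log2 fold change was 1.14 and passed (edgeR adjusted p = 0.00896), as did the fit with the run, here the same as the replicate number, as a block (0.85, adjusted p = 0.0244). Every stretched sample was above every unstretched sample of its experiment, in experiment 1 by a narrow gap (22.5 against 22.3 CPM). The share of all genes separated in this direction was not computed. The glucocorticoid receptor gene Nr3c1, which shares ligands with Nr3c2, had log2 fold changes of 0.00 (SE 0.14) and -0.36 (SE 0.31) with edgeR adjusted p of 0.996 and 0.747, and the high-stretch value was 0.02 without unstretched replicate 3 (adjusted p = 0.966). Cyp11b2, the aldosterone synthase gene, had 0 counts in all 15 libraries.

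Signalling genes below the angiotensin and endothelin receptors were mostly not called. Under low stretch 23 of 27 were tested and 1 was called lower, and under high stretch 22 were tested, with 1 called higher and 1 lower. With the run as a block the calls under low stretch were 5 higher and 5 lower. That fit called 6106 of 21672 genes. Without unstretched replicate 3 the calls under high stretch were 2 higher and 2 lower, where 1421 of 18297 genes were called. In the main fits the median log2 fold change of these signalling genes was -0.01 for low and -0.02 for high stretch. Over all genes tested it was 0.01 and -0.02. The called genes encode receptors for inositol trisphosphate, which release calcium from stores, and a regulator of G protein signalling.

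Itpr1 had 224, 219 and 266 CPM in unstretched cells of experiment 1 and from 154 to 185 CPM under low stretch, with no overlap. Its log2 fold change was -0.48 (SE 0.08, edgeR adjusted p = 0.0101), and the call was lost without unstretched replicate 3 (-0.40, adjusted p = 0.0653), in the fit of all 15 samples (adjusted p = 0.226) and with the replicate number as a block (-0.54, adjusted p = 0.0833). Under high stretch it was -0.36 (SE 0.32, adjusted p = 0.752), and 0.05 without unstretched replicate 3 (adjusted p = 0.919). Itpr3 had 43.6, 69.8 and 43.7 CPM in unstretched cells of experiment 2 and 161, 166 and 165 CPM under high stretch. Its log2 fold change was 1.67 (SE 0.22, edgeR adjusted p = 0.0105), and 0.89 (SE 0.29, adjusted p = 0.0931) under low stretch. The low-stretch value passed with the run as a block (0.94, adjusted p = 7.7e-05), in DESeq2 (0.0206) and with the replicate number as a block (0.0399). Without unstretched replicate 3 the high-stretch value was 1.59 (adjusted p = 0.00172). The high-stretch call was lost without unstretched replicate 1 or high-stretch replicate 1 or 3 (adjusted p from 0.06 to 0.0681). Rgs4, at low level, had 0.187, 0.170 and 0.222 CPM unstretched and 0.0607, 0.0638 and 0.0363 CPM under high stretch (log2 fold change -1.85, SE 0.38, edgeR adjusted p = 0.0422). Its call held in 1 of 6 fits with a sample left out, the one without unstretched replicate 3 (adjusted p = 0.0445), and the others gave 0.0573 to 0.237. Under low stretch it was -1.62 (SE 0.44, adjusted p = 0.0583) and passed in 4 of 6 alternatives, among them the run as a block (0.0064).

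Edn1 is known from endothelial cells and the aminopeptidases from tubule cells, in each case among other cells, so markers of other cell types are given beside these results. Of 6 endothelial markers only Ehd3 was above 0.1 CPM, and Pecam1, Cdh5, Kdr, Tek and Emcn were below it in every group. The summed endothelial markers, nearly all Ehd3, ran from 44.7 to 46.9 CPM unstretched and from 26.8 to 35.5 CPM under low stretch, and from 70.3 to 82.7 and 42.5 to 54.7 CPM in experiment 2. Ehd3 was called lower under low stretch (log2 fold change -0.48, edgeR adjusted p = 0.0147) and was not called under high stretch (-0.57, adjusted p = 0.133). Its low-stretch call was lost without any 1 unstretched sample (edgeR adjusted p from 0.0508 to 0.0798) and with the replicate number as a block (0.0899). Of 3 endothelial markers tested under low stretch, 1 was lower and 2 were higher (median log2 fold change 0.31), with 0 called higher. Among 6 tubule markers Lrp2 was the one expressed. The sum ran from 926 to 1089 CPM unstretched and from 474 to 757 CPM under low stretch, and from 317 to 667 and 249.2 to 425 CPM in experiment 2. Lrp2 was called lower under low stretch (-0.65, edgeR adjusted p = 0.0227) and was not called under high stretch (-0.39, adjusted p = 0.733, and -0.01 without unstretched replicate 3). Its low-stretch call was lost without any 1 unstretched sample or low-stretch replicate 4 (edgeR adjusted p from 0.0504 to 0.1245). Of 2 tubule markers tested under low stretch, 1 was higher and 1 lower (median log2 fold change 0.02). With the run as a block, 1 was called higher and 1 lower, in a fit that called 6106 of 21672 genes. Slc34a1, Umod, Aqp2 and Slc12a3 were at trace level, and Slc12a1 ran from 0.0322 to 0.723 CPM over the samples. Of 6 leukocyte markers Csf1r and Cd68 were expressed, and Ptprc, Adgre1 and Cd3e were at trace level. Their sum, with Csf1r the highest marker, ran from 23.6 to 26.3 CPM unstretched and from 6.87 to 13.2 CPM under low stretch. In experiment 2 it ran from 23.9 to 26.3 and from 5.98 to 9.93 CPM. Csf1r was called lower in both (log2 fold change -1.51 and -2.02, edgeR adjusted p = 0.00739 and 0.00808), and without unstretched replicate 3 its high-stretch value was -2.03 (adjusted p = 0.000994). Its high-stretch call was lost without high-stretch replicate 3 (edgeR adjusted p = 0.0736). Of 4 leukocyte markers tested under low stretch, 1 was higher and 3 lower (median log2 fold change -0.07). Under high stretch 3 were tested, with 1 higher and 2 lower (median -0.58). With the run as a block, the leukocyte calls under high stretch were 1 higher and 1 lower. That fit called 1546 of 18524 genes. Of 6 mesangial and smooth muscle markers 4 were expressed, and their sum, mainly Acta2, ran from 1285 to 2028 CPM unstretched and 1532 to 3980 CPM under low stretch, and from 2592 to 7310 and 6608 to 10600 CPM in experiment 2. Pdgfrb of the same list was called lower under low stretch (-0.56, edgeR adjusted p = 0.0199), against the direction of that sum, and was not called under high stretch (-0.42, adjusted p = 0.357). Its low-stretch call was lost without unstretched replicate 1 or 3 (edgeR adjusted p = 0.0734 and 0.12) and with the replicate number as a block (0.113). Of 12 podocyte markers 6 were expressed, and Wt1 was called lower under high stretch (log2 fold change -2.36, SE 0.45, edgeR adjusted p = 0.0311). Without unstretched replicate 3 its log2 fold change was -1.67 (adjusted p = 0.00358). That call was lost without unstretched replicate 1 (edgeR adjusted p = 0.0693) and without high-stretch replicate 1, 2 or 3 (0.162, 0.0896 and 0.155). Under low stretch Wt1 had -1.16 (adjusted p = 0.0688) and passed in 4 of 6 alternatives, among them the run as a block (0.000894). Of 9 podocyte markers tested under low stretch, 6 were higher and 3 lower (median log2 fold change 0.20), with 0 called. Under high stretch 8 were tested, with 2 higher and 6 lower (median -0.27). With the run as a block, the podocyte calls under low stretch were 1 higher and 3 lower. That fit called 6106 of 21672 genes. The part of these markers in the results above was not tested.

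The splicing of the members, which the study's design text names as its subject, was read from transcript TPM. Agt and Edn1 have 1 transcript each in the annotation used, so no usage test applies to them. Ece1 has 4, and Ece1-203 and Ece1-201, whose starts lie 60 bases apart, carried nearly all of its TPM. Ece1-203 (ENSMUST00000130407) took between 71.1% and 74.0% of the Ece1 TPM in the 4 group means, and Ece1-201 (ENSMUST00000102518) between 25.6% and 28.6%. Ece1-204 and Ece1-202, which start over 51 kb downstream, together took under 1% in each group. Nr3c2 has 8 transcripts, of which Nr3c2-203 (ENSMUST00000109912) took 77.7% and 80.5% in unstretched and low-stretch cells of experiment 1 and 68.8% and 80.2% in unstretched and high-stretch cells of experiment 2. Nr3c2-204 and Nr3c2-206 each took between 5.80% and 11.9%.

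No transcript of a member changed its share by the limma test. Under low stretch 0 of 5 tested transcripts of Ece1 and Nr3c2 passed, where 0.0144% of 27720 transcripts did, and under high stretch 0 of 6 passed, where 0.0% of 23408 did (1881 of these had an unadjusted p under 0.05). The log2 usage ratio of Ece1-203 differed by 0.06 (SE 0.15, limma adjusted p = 0.915) under low stretch and by -0.10 (SE 0.16, adjusted p = 0.912) under high stretch. That of Nr3c2-203 differed by 0.17 (SE 0.20, adjusted p = 0.812) and by 0.58 (SE 0.26, adjusted p = 0.645). For Nr3c2 the low TPM, at most 4.99 in any sample, limits what such a test can show.

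The genes with the pattern most like each expressed member were sought among 11249 protein-coding genes, by Pearson's r of log2 CPM after the mean of each experiment had been subtracted, over the 15 samples. For Agt these were B830017H08Rik (r = 0.983) and the complement protease gene C1ra (r = 0.980), whose mean was 34.2 CPM unstretched and 12.9 CPM under low stretch, and 53.0 and 12.0 CPM in experiment 2. Those for Edn1 were 1700029J07Rik (r = 0.980) and the myosin gene Myo15b (r = 0.978). Sort1, for the sorting receptor sortilin (r = 0.973), and the protease gene Adamts4 (r = 0.970) were most like Ece1. For Nr3c2 the genes were Aph1b, for a γ-secretase subunit (r = 0.961), and Cyp39a1, for an oxysterol hydroxylase (r = 0.960). The points share libraries and the groups that stretch defines, and these values are a description with no test.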

How the data were processed

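Poly(A) RNA of 15 samples was sequenced as stranded paired-end libraries, per the labels' protocols. The authors deposited raw gene counts and transcript TPM values. The submitters' processing notes name STAR 2.7.5c, featureCounts, Subread 2.0.0, DESeq2 1.38.3, Salmon 1.9.0 and mm39, with no roles; the annotation, the strand setting and whether a read pair was counted once are not given in the sources used here, so antisense reads may be shared. GENCODE M21 (GRCm38) gave symbols and transcript links only, for 52083 genes and 137189 of 140789 transcripts, which held at least 99.12% of the TPM.

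Groups came from the titles. Gene tests used R 4.3.3 and edgeR 4.0.16 (TMM, filterByExpr, quasi-likelihood F test, Benjamini-Hochberg over all genes at 0.05), and a stretched group was fitted together with unstretched samples of the same experiment. Dividing a log2 fold change by the root of its F gave the SE. CPM used TMM-scaled libraries over all samples. Transcript usage was tested with limma 3.58.1 on log2((transcript TPM + 0.1) / (other TPM of the gene + 0.1)), for genes averaging 1 TPM or more and transcripts with mean fractions of 0.05 to 0.95. Alternatives were DESeq2 1.42.0, RLE factors, no filter, all samples in one fit, blocks on replicate number or run of sample codes, other pseudocounts, and each sample left out. The tests were tested on simulated data.

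Named genes were the 8 members, fixed partners (Ren1, Agtr1b, Agtr2, Mas1, Edn2, Edn3, Ece2, Nr3c1, Hsd11b2, Sgk1 and Trpc6) and called genes of the pathway lists, at most 6 per list and comparison; Cyp11b2, Gnaq, Gna11, Lnpep, Prcp, Prep, Thop1, Nln and markers are given beyond this rule, chosen with their values seen. Some genes of the lists are not reported here. The members and lists were chosen with earlier results of these data known. Expressed means at least 1 CPM in a group mean, low 0.1 to 1 CPM, and trace less. Counting limits cover counting error only.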

Additional observations from a re-analysis of the deposited data

Results flagged for a closer look

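Among the named genes, 23 sets of 6 low-stretch values were checked for a sample far from the others, and 4 had such a sample; chance alone gives about 1 in 20. All 4 were genes at trace level. The highest low-stretch value was 0.00348 CPM for Agtr1a, 0.00313 CPM for Ren1 and 0.0455 CPM for Mas1, and the lowest was 0.00329 CPM for Edn3. For Agtr1a and Ren1 the value is a single count where the other low-stretch libraries had 0. No expressed member had a sample that stood apart in this way, and groups of 3 were not checked.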

How the results depend on the processing

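Depth limits the 4 trace genes, the small groups limit the calls, and amplitude is confounded with experiment. Agt was called lower under low stretch in all 6 other settings and all 9 fits with a sample left out, and under high stretch in all 6 settings. Over all genes, low stretch gave 1181 calls, and it gave 2694 with DESeq2, 640 in a fit of all 15 samples, 490 with a replicate block and 6106 with a run block. High stretch gave 643 calls, and it gave 1321 with DESeq2, 1050 without the filter, 1488 in a fit of all samples and 1546 with the replicate block, which is also the run block. The difference between the effects gave 3 calls, none of them a member, with the run block. With a sample left out, the calls ranged from 220 (without unstretched replicate 3) to 1630 (without low-stretch replicate 5) for low stretch, and from 14 (without high-stretch replicate 3) to 1421 (without unstretched replicate 3) for high stretch. The members called ranged from 1 to 3 for low stretch, from 0 to 2 for high stretch and from 1 to 3 between the unstretched groups.

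Replicate numbers did not pair the samples of experiment 1: deviations from the group means of same-numbered samples correlated at -0.44 to 0.365, with a mean of -0.071. In experiment 2, where number and run are the same split, the correlation was -0.163 to 0.45. Its mean of 0.176 was above the 0.1 set as the mark of pairing, against -0.095 for other pairs. With that split as a block, 2 of 4 tested members were also called lower under high stretch, as were 932 of all 18524 genes tested. Runs of sample codes, whose meaning is not given, paired experiment 1 more closely (0.328 to 0.57); the unblocked design was kept, and calls of named genes that the run block changed stand beside them. With the replicate block the Nr3c2 call was lost under low stretch (adjusted p = 0.095), the Anpep call too (0.0613), and Nr3c2 passed between the unstretched groups (0.0359).

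Usage calls under low stretch numbered 4, and 1, 75, 91, 0 and 37 with a pseudocount of 0.01, a pseudocount of 1, no filter, the replicate block and the run block. They ranged from 1 to 8 with a sample left out. Under high stretch they numbered 3 with a pseudocount of 1 and 7 without the filter, and ranged from 0 to 10. No member transcript was called in any setting.

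Signs turned only in values that passed nowhere. Under low stretch Nr3c1 was 0.00866 (DESeq2), 0.00427 (RLE), 0.000983 (no filter), 0.00227 (all samples) and 0.00653 (run block), and -0.12 to 0.16 with a sample left out; under high stretch it was -0.56 to 0.0231, and Itpr1 -0.54 to 0.0491. The difference between effects was 0.0389 for Ece1 with the replicate block and -0.41 to 0.13 for Nr3c2 with a sample left out, and the Edn1 difference between unstretched groups was -0.32 to 0.21. In usage ratios under low stretch, a pseudocount of 1 gave 0.23 for Nr3c2-204 and -0.0771 for Nr3c2-203, the replicate block gave -0.0572 for Nr3c2-203, and a pseudocount of 0.01 gave -0.12 for Nr3c2-206. Under high stretch Nr3c2-207 was 0.19 with a pseudocount of 1, and Nr3c2-206 was -1.06 with 0.01. With a sample left out Ece1-201 was -0.14 to 0.019 under low stretch, Ece1-203 was -0.0131 to 0.15 under low stretch, Nr3c2-206 was -0.0478 to 0.30 under low stretch, Ece1-201 was -0.00222 to 0.21 under high stretch, Ece1-203 was -0.21 to 0.00886 under high stretch, Nr3c2-206 was -0.22 to 0.27 under high stretch. The cause of these changes was not tested.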
